A study of Mus musculus with 12 samples.

Results

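PARP enzymes move ADP-ribose from NAD+ onto proteins and nucleic acids, some of them as chains and others as a single unit. Parp1, Parp2 and Parp3 are known for binding broken DNA, where the chains of Parp1 and Parp2 gather repair proteins. Parp9, Parp10, Parp12 and Parp14 are known as genes that interferon can induce, and Dtx3l is the ubiquitin ligase that pairs with Parp9. In the nervous system, strong activity of Parp1 is known for draining NAD+ from injured neurons. The 10 genes described here are Parp1, Parp2, Parp3, Parp4, Parp8, Parp9, Parp10, Parp12, Parp14 and Dtx3l, taken by name out of 24340 rows of the table. All 10 were above 0 in all 12 libraries and none was lost to a filter.

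The RNA came from p16-3MR mice aged 12 to 16 weeks, 6 animals with both retinas sequenced. One eye of each animal was kept for 60 min at an intraocular pressure (IOP) of 85 to 90 mm Hg, and its fellow eye served as the non-IOP control (CTRL). Mice 1, 2 and 5 received ganciclovir (GCV) at 25 mg/kg daily and mice 3, 4 and 6 none, which gave 4 groups of 3 retinas, analysed on day 3. The paper describes its control mice as sham-treated with PBS or vehicle, without naming these animals. All 12 retinas, controls included, carry the 3MR transgene, in which regulatory DNA of p16INK4a drives a fusion of luciferase, a red fluorescent protein and a viral thymidine kinase, so GCV acts on any cell that uses this promoter and not on a chosen cell type. Values are FPKM (fragments per kilobase of transcript, scaled to library depth), a scale per length on which genes can be compared with each other.

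An estimated 3920000 to 8910000 fragments lay behind each library. The shallowest was the IOP-treated retina of mouse 6, in which 14844 genes were above 0, where the rest had 16044 to 16593. At least 26 estimated fragments lay behind every value of the 10 genes. The 10 rod markers summed to 34694 to 65086 FPKM per library, more than any other marker list examined. All of them were above 0 in each group, which held for the lens and blood markers in the table as well. Over the 10 retinal ganglion cell markers, the IOP-treated retina of mouse 4 summed to 990.4 FPKM, inside the 895 to 1136 FPKM of the control retinas without GCV, whereas the other 5 IOP-treated retinas summed to 214 to 724 FPKM.

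The upstream sequence of 2 members is shown first, since one holds the interferon motif searched for here without passing the test after IOP elevation, and the other had the smallest adjusted p of the 10 genes over the 6 pairs without holding the motif. Both come from RefSeq on build GRCm38.p6 and end at the base before the transcription start, written 5′ to 3′ on the strand of the gene. Parp3 lies on the minus strand at chr9:106470322-106476949 and its 250 bases on chr9:106476950-106477199. Parp4 lies on the plus strand at chr14:56575619-56659798, and 193 bases on chr14:56575426-56575618 are given, up to an exon of the neighbouring Cenpj. Capitals mark matches to the core of the interferon-stimulated response element, GAAANNGAA.
Parp3: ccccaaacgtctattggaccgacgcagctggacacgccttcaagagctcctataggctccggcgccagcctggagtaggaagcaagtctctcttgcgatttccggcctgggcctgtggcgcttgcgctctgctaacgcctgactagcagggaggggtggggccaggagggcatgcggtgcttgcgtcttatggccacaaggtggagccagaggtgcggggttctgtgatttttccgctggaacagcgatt
Parp4: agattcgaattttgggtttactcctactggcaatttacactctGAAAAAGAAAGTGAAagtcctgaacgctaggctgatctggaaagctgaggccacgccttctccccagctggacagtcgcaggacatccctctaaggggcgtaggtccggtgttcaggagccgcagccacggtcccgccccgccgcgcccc

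In Parp4 the capitals are a pair of matches that overlap, GAAAAAGAA at -150 to -142 and GAAAGTGAA at -144 to -136 from the start. The 250 bases before a RefSeq transcript start were on hand for 7 of the 10 genes (Parp1, Parp2, Parp3, Parp4, Parp8, Parp12 and Dtx3l). For Parp8 this window, chr13:117025532-117025781, lies inside the gene itself, chr13:116850842-117026019 on the minus strand. The window of Parp2, chr14:50807666-50807915, runs past the first base of that gene, 50807897. The element core, read on both strands, was in 1 of these 7, and the gamma-activated sequence TTCNNNGAA, which reads the same on either strand, in 0. Over all 32817 RefSeq promoters, 7.12% held the first and 7.01% the second. A match is a run of letters and no binding was measured, and its absence from 250 bases speaks for these letters in this window only.

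Retinas after IOP elevation held higher levels of 7 of the 10 genes. Over the 6 pairs of eyes, Parp1, Parp3, Parp9, Parp10, Parp12, Parp14 and Dtx3l passed an adjusted p of 0.05, all higher, where 6.76% of the 18509 genes tested passed and were higher (limma on log2(FPKM + 1), Benjamini-Hochberg over all genes). The median log2 fold change of the 10 genes was 1.38, beside 0.01 over all genes. Each of the 7 was higher in the IOP-treated eye in 6 of 6 mice, and in each the lowest of the 6 IOP-treated retinas stood above the highest of the 6 control retinas, which held for 5.47% of all genes. Parp2, Parp4 and Parp8 did not pass. In a whole retina, more cells that express a gene and more RNA per cell cannot be told apart. The plot of both eyes of each mouse shows these levels gene by gene.

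**Figure D1:**
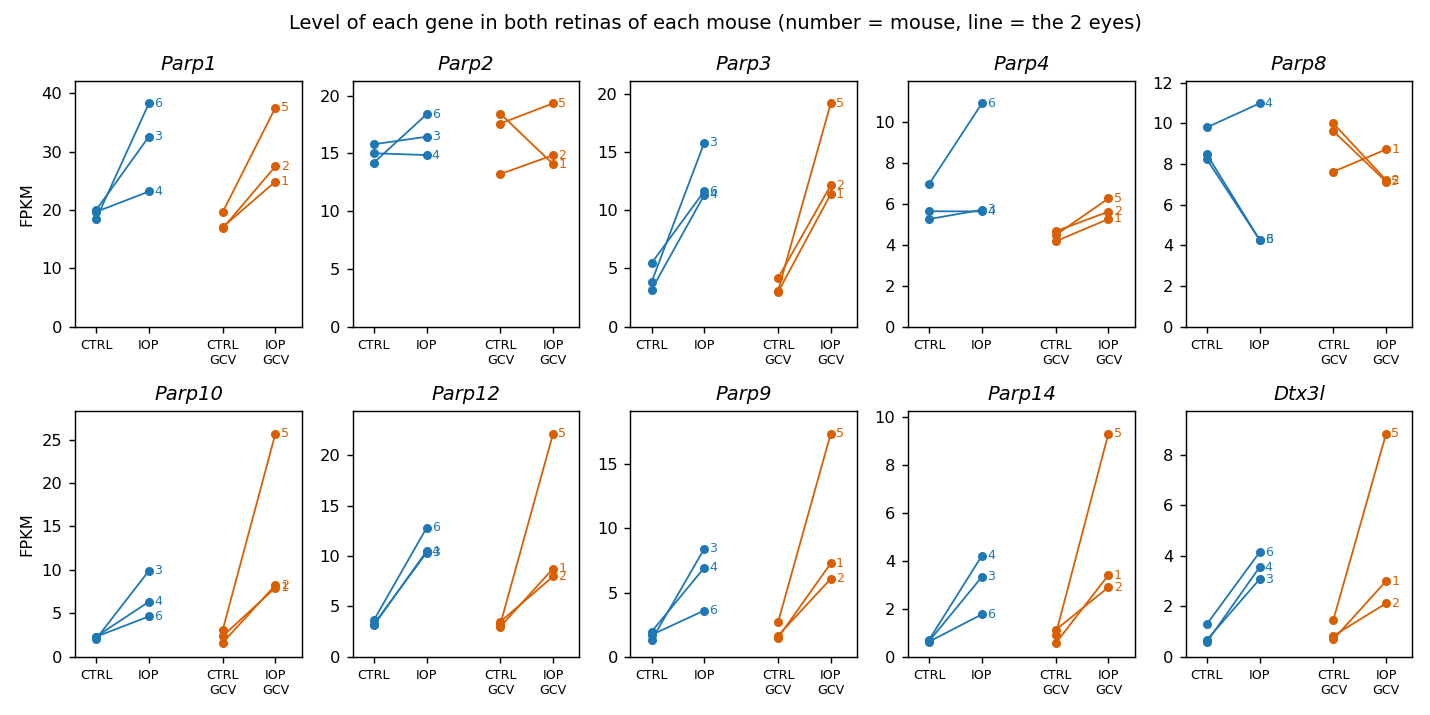
FPKM of each of the 10 genes (y axis, from 0, scaled per gene) in the control and IOP-treated retina of each mouse, with a line joining the eyes of a mouse, blue without GCV and orange with GCV, and the number of the mouse at the IOP-treated eye. All 6 lines rise for 7 genes, whereas Parp4 is higher in 5 of 6 mice, Parp2 in 4 and Parp8 in 2, and mouse 5 is the highest point for Parp3, Parp9, Parp10, Parp12, Parp14 and Dtx3l.

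Among the enzymes that bind broken DNA, Parp1 and Parp3 rose and Parp2 did not pass the test. Parp1, which makes most of the poly-ADP-ribose of a cell, stood at 20.0, 19.7 and 18.4 FPKM in the control retinas of mice 3, 4 and 6 and at 32.6, 23.2 and 38.3 FPKM in their IOP-treated retinas. With GCV it was at 17.1, 16.8 and 19.6 FPKM in the control retinas of mice 1, 2 and 5 and at 24.8, 27.5 and 37.6 FPKM in the IOP-treated ones. The groups did not overlap, and mouse 4 had the smallest step. Over the 6 pairs the log2 fold change of Parp1 was 0.67 (standard error 0.13, limma adjusted p = 0.0131), the smallest among the 7 genes that passed. Without both eyes of mouse 6, whose step was the largest, the adjusted p of Parp1 was 0.0554 and its log2 fold change 0.57.

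Parp2, the close relative of Parp1, was at 15.8, 15.0 and 14.2 FPKM in the control eyes of mice 3, 4 and 6, beside 16.5, 14.9 and 18.4 FPKM after IOP elevation. In mice 1, 2 and 5 the control eyes held 18.4, 13.2 and 17.6 FPKM and the treated eyes 14.1, 14.9 and 19.3 FPKM. The ranges of the eyes overlapped in both treatments, and mouse 1 was lower after IOP elevation while mouse 6 was higher. The log2 fold change of Parp2 over the 6 pairs was 0.05 (limma adjusted p = 0.779), with a 95% interval of -0.19 to 0.29.

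Parp3, which takes part in the repair of double-strand breaks, had the smallest adjusted p of the 10 genes. Its control retinas stood at 3.81, 3.16 and 5.43 FPKM in mice 3, 4 and 6, against 15.8, 11.3 and 11.6 FPKM after IOP elevation. In mice 1, 2 and 5 the control retinas were at 2.95, 4.16 and 3.07 FPKM and the IOP-treated ones at 11.4, 12.1 and 19.2 FPKM. The lowest IOP-treated value of Parp3 was thus above the highest control value by a wide margin. Its log2 fold change was 1.61 (standard error 0.17, limma adjusted p = 0.00059), and the call held in all 12 fits with a library removed.

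Parp4, found in the vault particle, did not pass. The retinas of mice 3, 4 and 6 held 5.24, 5.62 and 6.96 FPKM of it in the control and 5.69, 5.61 and 10.9 FPKM in the IOP-treated eye. Those of mice 1, 2 and 5 held 4.16, 4.65 and 4.47 FPKM and 5.25, 5.6 and 6.25 FPKM. Groups overlapped without GCV and did not with GCV, where the log2 fold change was 0.30 (limma adjusted p = 0.503). The share of all genes with groups of 3 retinas apart was not computed. The IOP-treated retina of mouse 6 was the highest of the 12. Over the 6 pairs Parp4 had 0.26 on the log2 scale (95% interval -0.08 to 0.61, limma adjusted p = 0.284).

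Among the other enzymes that add a single ADP-ribose, Parp10 and Parp12 rose and Parp8 did not pass. Parp10, which interferon induces in many cells, was at 2.06, 2.32 and 2.31 FPKM in the control retinas of mice 3, 4 and 6 and at 9.89, 6.33 and 4.64 FPKM after IOP elevation. In the GCV-treated mice 1, 2 and 5 its control retinas were at 2.38, 1.62 and 3.07 FPKM and its IOP-treated retinas at 7.95, 8.25 and 25.7 FPKM. Mouse 5 stood far above the other IOP-treated retinas and mouse 6 was the lowest of them. The log2 fold change of Parp10 was 1.61 over the 6 pairs (standard error 0.28, limma adjusted p = 0.00774) and 1.43 without mouse 5 (adjusted p = 0.00704).

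Parp12, a zinc finger member that interferon also induces, varied little between control retinas. It was at 3.23, 3.12 and 3.63 FPKM in mice 3, 4 and 6 and at 2.99, 3.48 and 3.23 FPKM in mice 1, 2 and 5. After IOP elevation it was at 10.3, 10.5 and 12.8 FPKM in the former and at 8.76, 7.97 and 22.2 FPKM in the latter. All 6 IOP-treated retinas stood above the 6 controls, with mouse 5 again the highest. Its log2 fold change was 1.54 (standard error 0.21, limma adjusted p = 0.00223).

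Parp8, a member of which less is known, had a negative estimate that did not pass. Its control retinas were at 8.23, 9.80 and 8.47 FPKM in mice 3, 4 and 6, and the IOP-treated ones at 4.27, 11 and 4.27 FPKM. With GCV the control retinas of mice 1, 2 and 5 were at 7.62, 10.0 and 9.62 FPKM and the IOP-treated ones at 8.72, 7.21 and 7.13 FPKM. Mice 1 and 4 were slightly higher after IOP elevation and the other 4 mice were lower. The log2 fold change of Parp8 over the 6 pairs was -0.36 (standard error 0.20, limma adjusted p = 0.259). With mouse 4's treated eye left out it was -0.55 and passed (limma adjusted p = 0.00531). In that fit 4499 of all genes passed, against 2258 with all 12 libraries.

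The macrodomain enzymes Parp9 and Parp14 and the ligase Dtx3l all rose. Parp9, which works with Dtx3l at DNA damage and in interferon signaling, was at 1.29, 1.94 and 1.70 FPKM in the control retinas of mice 3, 4 and 6 and at 8.42, 6.94 and 3.6 FPKM in their IOP-treated retinas. With GCV it was at 1.48, 1.64 and 2.68 FPKM in control retinas of mice 1, 2 and 5 and at 7.28, 6.07 and 17.4 FPKM after IOP elevation. The eyes did not overlap, the lowest IOP-treated value being that of mouse 6. Parp9 had a log2 difference of 1.62 between the eyes (standard error 0.26, limma adjusted p = 0.00537).

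Parp14, a cofactor in interleukin-4 signaling, was at 0.653, 0.713 and 0.631 FPKM in the control retinas of mice 3, 4 and 6 and 3.33, 4.21 and 1.77 FPKM after IOP elevation. In mice 1, 2 and 5 the fellow eyes were at 0.562, 1.12 and 0.925 FPKM and the treated eyes at 3.4, 2.89 and 9.29 FPKM. All 6 IOP-treated retinas were above all 6 controls. The log2 fold change was 1.42 (standard error 0.25, limma adjusted p = 0.00756). For a gene this low the added 1 holds the fold change down, and with 0.1 in its place the value was 2.14.

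Dtx3l was at 0.666, 0.586 and 1.29 FPKM in the control retinas of mice 3, 4 and 6 and at 3.07, 3.55 and 4.14 FPKM in the IOP-treated ones. In mice 1, 2 and 5 the control retinas held 0.688, 0.828 and 1.46 FPKM and the IOP-treated retinas 3.00, 2.12 and 8.84 FPKM. Again no control retina reached an IOP-treated one. Dtx3l differed by 1.33 on the log2 scale (standard error 0.26, limma adjusted p = 0.0130), and 1.97 with 0.1 in place of 1.

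Parp14, Dtx3l and Parp9 are neighbours on mouse chromosome 16 within 140730 bases of build mm10, with Parp14 at chr16:35831892-35871518 and Dtx3l at chr16:35926515-35939027 on the minus strand and Parp9 at chr16:35938470-35972621 on the plus strand. Dtx3l and Parp9 start head to head, their spans overlap by 558 bases and exons on opposite strands share 367 bases. The library kit marks strand, but whether the counting used it is not given in the sources used here, so reads in that overlap may have been split between them. The 6 neighbours with a row in the table did not pass the test. Their log2 fold changes over the 6 pairs ran from -0.35 for Dirc2, the gene now named Slc49a4, to 0.32 for Ccdc58, with limma adjusted p of 0.139 or more. Dirc2 passed in 1 of 12 fits with a library removed, that without the treated eye of mouse 4, and the other neighbours in 0. In that fit 4499 of all genes passed. Hspbap1, next to Parp14, had 0.10 and Kpna1, next to Parp9, had -0.04. The ratio of Parp9 to Dtx3l, both in FPKM, was 1.32 to 3.32 in control retinas and 0.870 to 2.87 in IOP-treated ones, ranges that overlap.

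**Figure D2:**
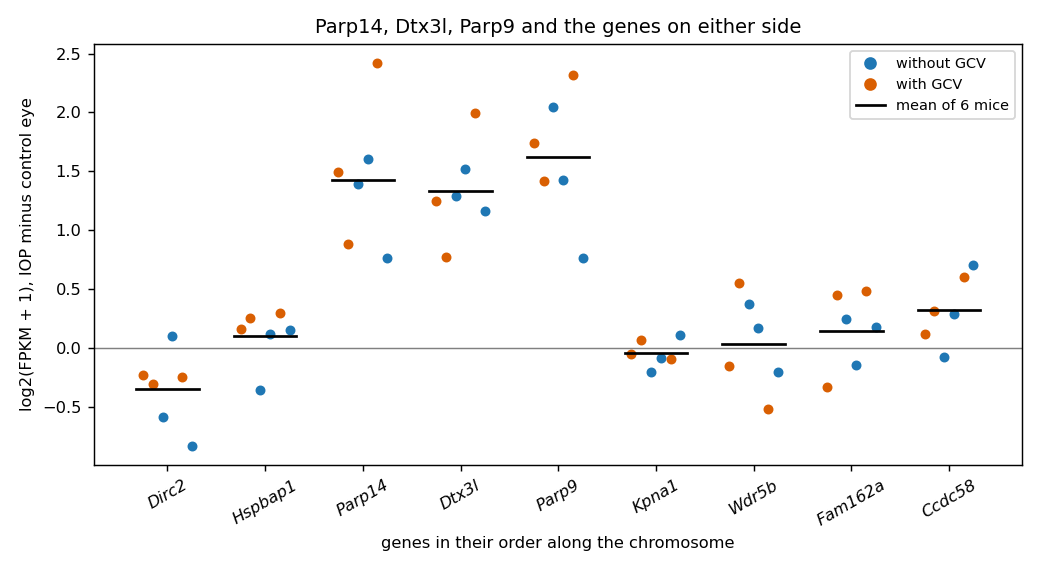
Log2(FPKM + 1) of the IOP-treated eye minus that of the control eye (y axis) for Parp14, Dtx3l, Parp9 and the genes on either side in their order along the chromosome (x axis), 1 point per mouse and a bar at the mean of the 6 mice. The 3 members sit between 0.76 and 2.42 in every mouse, and the means of the 6 neighbours lie between -0.35 and 0.32.

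By mean level, in control retinas Parp1 was the highest (18.6 ± 1.38 FPKM, SD, n = 6), followed by Parp2 (15.7 ± 2.0), Parp8 (8.96 ± 0.98), Parp4 (5.18 ± 1.0), Parp3 (3.76 ± 0.94), Parp12 (3.28 ± 0.24), Parp10 (2.29 ± 0.47), Parp9 (1.79 ± 0.49), Dtx3l (0.920 ± 0.365) and Parp14 (0.767 ± 0.212). Parp8 stood apart from Parp2 above it and Parp4 below it, and all other neighbours in this order overlapped. After IOP elevation Parp1 (30.6 ± 6.47 FPKM) stood clear of Parp2 (16.3 ± 2.13), and every later pair of neighbours overlapped. There Parp3 (13.6 ± 3.23) and Parp12 (12.1 ± 5.21) held the places after Parp2, and Parp8 (7.10 ± 2.60) was seventh.

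Summed over the 10 genes, the level was 57.5 to 65.7 FPKM in the 6 control retinas and 94.6 to 172.8 FPKM in the IOP-treated ones. Parp1 and Parp2 together made up 51.8 to 60.9% of the sum in control retinas and 32.9 to 51.3% after IOP elevation, without overlap. The share of Parp2 alone went from 22.5 to 31.6% down to 11.2 to 16.7%, while the share of Parp1 overlapped between the eyes (29.2 to 32.8% and 21.7 to 34.7%). Shares of a sum move against each other by construction and were not tested.

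**Figure D3:**
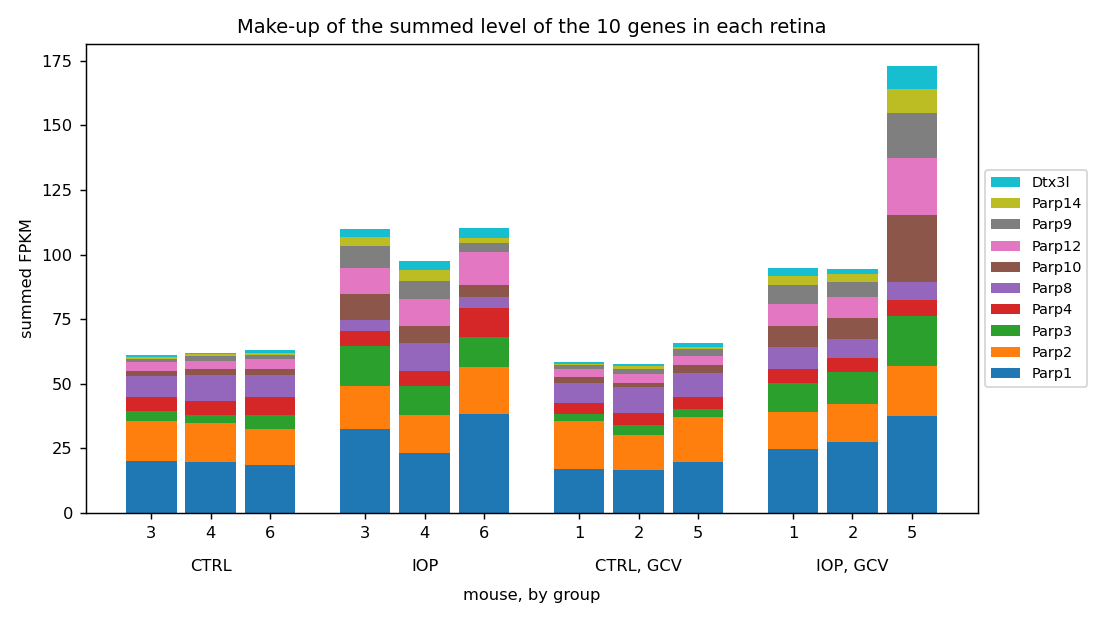
Summed FPKM of the 10 genes (y axis, from 0) in each of the 12 retinas (x axis, mouse number by group), with 1 color per gene. The IOP-treated bars reach 94.6 FPKM or more against at most 65.7 FPKM in controls, mouse 5 with GCV is the tallest at 172.8 FPKM, and the Parp2 segment lies between 13.2 and 19.3 FPKM in all 12 retinas.

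In mice without GCV alone, where 1.42% of all genes passed and were higher, 2 members passed. These were Parp3 at 1.45 on the log2 scale (limma adjusted p = 0.0181) and Parp12 at 1.49 (adjusted p = 0.0385). Parp9, Parp14, Dtx3l, Parp10 and Parp1 had log2 fold changes of 1.41, 1.25, 1.32, 1.25 and 0.64 with unadjusted p of 0.00335 to 0.0105 and missed the threshold. With the eyes paired by mouse, 0 members passed in limma, with an adjusted p of 0.0777 for Parp3 and 0.0969 for Parp12. Unpaired, 7 of the 10 had an unadjusted p under 0.05 in limma, as did 3501 of the 18509 genes. Single libraries moved the count of members, and that of all genes with it. It was 0 without either retina of mouse 3 or the control retina of mouse 4, 1 without either retina of mouse 6, any control retina with GCV or the treated one of mouse 1, 4 without the treated one of mouse 4, and 6 without the treated one of mouse 5, which belongs to the other treatment and enters through the shared spread. Over all genes, where 306 passed, the count was 20, 79 and 30 without the control or treated retina of mouse 3 or the control retina of mouse 4, 102 to 240 in the fits with 1 member, 2432 with the treated eye of mouse 4 dropped and 768 with the one of mouse 5 dropped.

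In GCV-treated mice, where 1.65% of all genes passed and were higher, 4 members passed. These were Parp3 (log2 fold change 1.77, limma adjusted p = 0.00667), Parp12 (1.58, adjusted p = 0.0280), Parp10 (1.98, adjusted p = 0.0373) and Parp9 (1.83, adjusted p = 0.0385). Parp14 (1.60, adjusted p = 0.0516), Dtx3l (1.34, adjusted p = 0.103) and Parp1 (0.70, adjusted p = 0.0920) did not. Paired by mouse, 1 member passed, Parp3 (adjusted p = 0.0439). The count was 1 without any 1 of the 6 control retinas, and 6 when the treated eye of mouse 2 or of mouse 4 was dropped. The count of all genes, 334, moved with it, to 144 paired, to 62 to 221 with a control retina removed, and to 697 and 942 with the treated eye of mouse 2 or of mouse 4 removed. Over the 6 pairs of eyes the 7 members all passed paired by mouse as well, with adjusted p from 0.00827 for Parp3 to 0.0306 for Parp1.

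**Figure D4:**
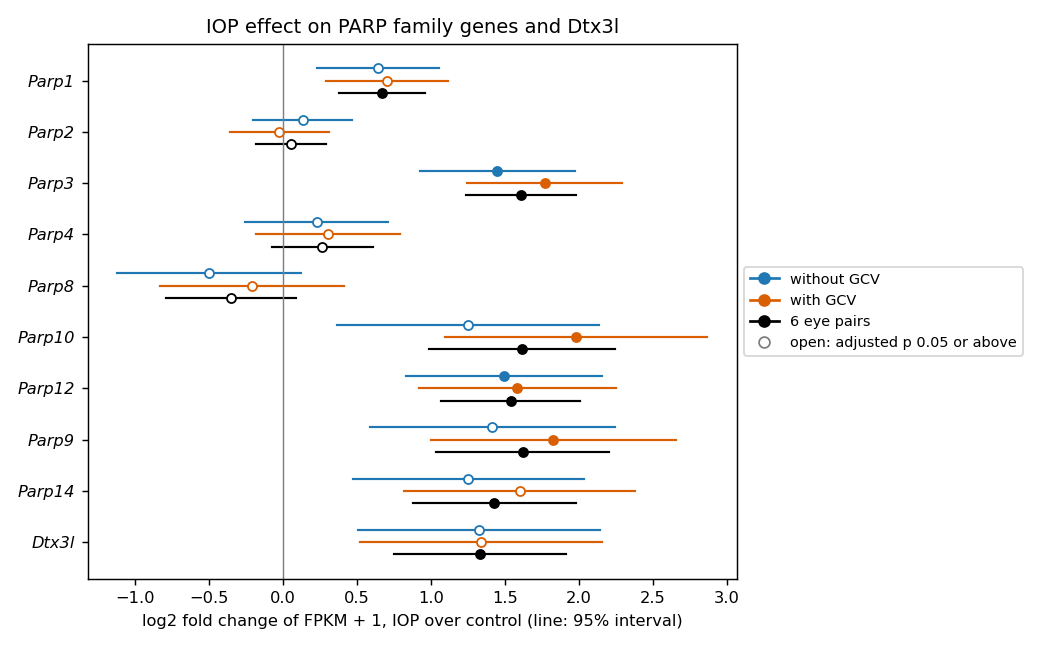
Log2 fold change of FPKM + 1 for IOP-treated over control retinas (x axis) of each gene, without GCV (blue, 3 mice), with GCV (orange, 3 mice) and over the 6 pairs (black), with the 95% interval of the limma fit as a line and open points where the adjusted p was 0.05 or above. All 7 members that passed over the 6 pairs lie right of 0 in each estimate, and the blue and orange intervals of each gene overlap.

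Whether GCV changed the response to IOP elevation was tested as the difference between these effects. Of the 10 genes 0 passed in limma and 0 had an unadjusted p under 0.05, and over all genes 0% passed, with 358 genes at an unadjusted p under 0.05. The difference (with GCV minus without, log2) had its largest value for Parp10, 0.73, with a 95% interval of -0.52 to 1.99. Intervals were -0.42 to 1.06 for Parp3, -0.85 to 1.03 for Parp12, -0.76 to 1.58 for Parp9 and -1.15 to 1.17 for Dtx3l, so differences within these bounds were not excluded with 3 mice per treatment. The sign turned without the IOP-treated retina of mouse 5 for Parp1, Parp9, Parp12, Parp14 and Dtx3l. Without it the difference was -0.35 for Parp12 and -0.48 for Dtx3l, and that of Parp10 was 0.21.

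GCV-treated and untreated retinas were also compared directly, in different mice. Among IOP-treated retinas 0 of the 10 genes passed in limma, 0 had an unadjusted p under 0.05, and 0% of all genes passed, with 774 at an unadjusted p under 0.05. The log2 fold changes, with over without GCV, ran from -0.27 for Parp4 to 0.77 for Parp10 (unadjusted p = 0.0838 for Parp10 in limma). Both ends rested on single libraries. Parp10 was at 0.25 when the treated eye of mouse 5 was dropped, and Parp4 at 0.0071 when that of mouse 6 was. With a library removed, the estimates of 6 members (Parp1, Parp2, Parp3, Parp4, Parp12 and Dtx3l) took both signs, those of Parp12 and Dtx3l reaching -0.38 and -0.37 without the treated eye of mouse 5. Among control retinas 0 members and 0% of all genes passed, with 295 genes at an unadjusted p under 0.05. There the log2 fold changes of the 10 genes were between -0.35 for Parp4 and 0.15 for Parp14, and with a library removed those of 5 members (Parp8, Parp9, Parp10, Parp12 and Dtx3l) took both signs.

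Mice ranked differently for different members. Mouse 5 had the largest log2 change between its eyes for Parp3 (2.31), Parp9 (2.32), Parp10 (2.71), Parp12 (2.45), Parp14 (2.42) and Dtx3l (2.0). Mouse 6 had the largest change for Parp1 (1.01), Parp2 (0.35) and Parp4 (0.58), and the smallest for Parp3 (0.97), Parp9 (0.77), Parp10 (0.77) and Parp14 (0.76). Its IOP-treated library was the shallowest of the 12, and the part of depth in these values was not tested. For each member, the genes with the most similar levels over the 12 libraries were sought among 12910 genes whose mean reached 1 FPKM. Parp9 and Parp10 were among the closest 3 of each other (Pearson's r = 0.981 over 12 libraries). The closest to Parp14 were the interferon-inducible genes Gbp7 (0.985), Ifih1 (0.983) and Herc6 (0.980), and to Dtx3l Rab32 (0.990) and the leukocyte genes Ncf1 (0.984) and Nckap1l (0.983). The closest to Parp3 was Glipr2 (0.992), and to Parp1 Tars (0.983). These values share the difference between the eyes and are given as a description. Over all 30 such places, 2 went to other PARP family genes.

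The PARP family has 7 further genes in the table, of which 3 were higher and 0 lower over the 6 pairs (limma), and the median log2 fold change was 0.17. Of all 18509 genes, 1252 were higher and 1006 lower. Zc3hav1, an antiviral member that lacks the enzyme activity, went from 0.667 ± 0.163 FPKM in the fellow eyes to 2.47 ± 1.31 FPKM after IOP elevation (SD, n = 6), or 0.99 on the log2 scale (limma adjusted p = 0.0203). With a library removed it passed in 7 of 12 limma fits, its highest adjusted p being 0.0579. Parp16, an enzyme of the endoplasmic reticulum, went from 1.89 ± 0.29 to 3.75 ± 0.64 FPKM (0.71, limma adjusted p = 0.00829) and Tiparp, a target of the aryl hydrocarbon receptor, from 4.8 ± 0.28 to 7.90 ± 1.43 FPKM (0.61, adjusted p = 0.0128). The most abundant of all PARP genes in these retinas was Parp6 (39.97 ± 2.55 against 35.7 ± 3.01 FPKM), which did not pass (-0.16, limma adjusted p = 0.138).

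Among genes that remove or read ADP-ribose, 10 hydrolases and readers in all, 0 passed in limma and 3 had an unadjusted p under 0.05, as did 5611 of the 18509 genes, with a median log2 fold change of 0.04. Parg, the main enzyme that cuts the chains, stood at 0.00 on the log2 scale (limma adjusted p = 0.985), and Chd1l, a remodeller that reads them, had the smallest adjusted p, 0.0924, with a log2 fold change of 0.36. With the treated eye of mouse 4 left out Chd1l passed (limma adjusted p = 0.0186), in a fit where 4499 of all genes passed. The histone variant gene H2afy, whose protein binds ADP-ribose, was the most abundant at 81.1 ± 3.74 and 85.6 ± 5.21 FPKM. Of 10 partners in single-strand break repair 0 passed, with a median of 0.04 and 1 gene at an unadjusted p under 0.05 in limma. Polb, the most abundant of them, was at 72.5 ± 5.14 and 83.0 ± 17.0 FPKM. Of the 4 ecto-ADP-ribosyltransferases above 0 in any library, 0 passed and 0 had an unadjusted p under 0.05 in limma. Art4 was listed at 0 in all IOP-treated retinas, and Art1 reached 1.79 ± 3.88 FPKM through single libraries.

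NAD+, the substrate of all these enzymes, is made and used by 12 genes of a further list, of which 1 was higher, 1 lower and the median log2 fold change 0.39. Over all 18509 genes 1252 were higher and 1006 lower, so the counts of genes that passed are near the background. In limma 7 of the 12 had an unadjusted p under 0.05, beside 5611 of all genes. A positive log2 fold change was found for 10 of the 12, beside 51.9% of all genes. Bst1, a NAD glycohydrolase of leukocytes and stroma, rose from 7.13 ± 2.41 to 16.3 ± 7.36 FPKM (1.05, limma adjusted p = 0.0471) and, with a library removed, passed in 2 of 12 fits. Nmnat2, which makes NAD+ in axons, fell from 12.2 ± 2.59 to 6.00 ± 2.85 FPKM (log2 fold change -0.998, limma adjusted p = 0.0382), was lower in 6 of 6 mice and had an adjusted p of 0.0508 with the eyes paired. It passed in 2 of those 12 fits. Nampt, the most abundant, was at 20.3 ± 1.35 and 27.5 ± 8.33 FPKM and did not pass (adjusted p = 0.155).

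In the list of interferon receptors, JAK kinases, STAT and IRF factors, 6 of 12 genes were higher and 1 lower. These counts stand beside 1252 higher and 1006 lower of all 18509 genes. The median log2 fold change of the list was 0.86. Irf9 (5.53 ± 0.97 to 42.7 ± 20.2 FPKM), Irf7 (8.35 ± 1.83 to 54.0 ± 36.7) and Stat2 (8.2 ± 0.74 to 22.2 ± 7.86), which relay interferon signals to the nucleus, had log2 fold changes of 2.65, 2.38 and 1.28 (limma adjusted p from 0.000417 to 0.00215). Jak1 was the most abundant and fell by 0.24 on the log2 scale (limma adjusted p = 0.0243, and 0.0604 with the eyes paired).

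**Figure D5:**
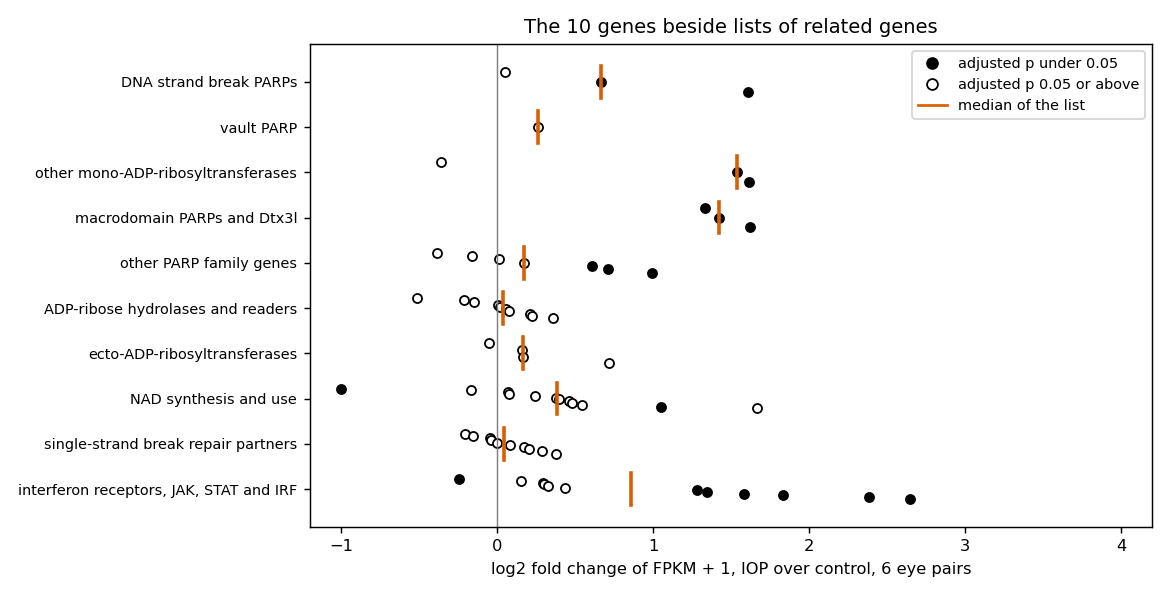
Log2 fold change of FPKM + 1 over the 6 pairs (x axis) for the 10 genes in 4 groups by role and for 6 lists of related genes (y axis), 1 point per gene, filled where the limma adjusted p was under 0.05, with an orange bar at the median. The medians of the hydrolases and of the repair partners are 0.04, against 1.42 for Parp9, Parp14 and Dtx3l.

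Markers of other cells moved with the same comparison, in which 1252 of all 18509 genes were higher and 1006 lower. Of 10 microglia markers 8 were higher and 0 lower over the 6 pairs in limma, and their sum was 71.9 to 114.8 FPKM in the 6 control and 277 to 586 FPKM in the 6 IOP-treated retinas. Of 12 leukocyte markers 7 were higher, and the sum went from 8.65 to 46.0 FPKM up to 162 to 2488 FPKM, with the highest value in mouse 5, the mouse with the largest change of 6 members, and the lowest in mouse 2. At 0 were Nkg7 in control retinas without GCV and Ly6c2, Cd3e and Nkg7 in those with GCV. Of 10 retinal ganglion cell markers 8 were lower, where 1006 of all 18509 genes were, 2 with the eyes paired, 10 without the treated eye of mouse 4 and 1 without that of mouse 5. Of 12 lens markers 7 were higher, 2 without the treated eye of mouse 5, with sums of 302 to 7793 FPKM in IOP-treated retinas, 69.5 to 214 FPKM in 5 control retinas and 8931 FPKM in the control retina of mouse 1. Of 10 Mueller glia markers 1 was higher and 2 were lower, and 0 and 1 with the eyes paired. Without the treated eye of mouse 4 it was 1 higher and 4 lower, and without that of mouse 5 it was 0 and 2. Of all genes, 4499 passed without the treated eye of mouse 4 and 1232 without that of mouse 5, against 2258. Rod, retinal pigment epithelium and blood markers had 0 genes passing, with 1, 0 and 0 at an unadjusted p under 0.05 in limma. The rod gene Nrl (-0.53, adjusted p = 0.0776) passed with the filter of 1 FPKM (adjusted p = 0.0425) and after quantile normalization (adjusted p = 0.0422). Rpe65 of the pigment epithelium (-1.13, adjusted p = 0.227) passed in limma without the control retina of mouse 5 (-1.69, adjusted p = 0.0306) and without both eyes of that mouse (-1.86, adjusted p = 0.0253). The part of any of these cells in the levels of the 10 genes was not tested.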

How the data were processed

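RNA-seq of both retinas of 6 mice gave 12 libraries. The authors used a stranded mRNA kit and paired reads of 50 bases, counted reads on exons of RefSeq genes with HOMER, and the deposited values are FPKM, a unit inferred from the values because it is not stated with the table. The submitters' processing notes name TopHat2, Bowtie2, Cufflinks, Cuffdiff and build mm10. Depth was estimated from the steps of low values in 1883 single-transcript genes, of which 79.4 to 85.9% of values per library lay within 0.15 of a whole fragment. Counting intervals were not computed.

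On log2(FPKM + 1), a model of 4 group means was fitted to all 12 libraries (R 4.3.3, limma 3.58.1), with a variance trend and Benjamini-Hochberg adjustment over the 18509 genes above 0, and a gene passed at an adjusted p under 0.05. The fit was tested on simulated data. The effect over 6 pairs is the mean of the effects without and with GCV. The eyes of a mouse come from 1 animal, so the mouse was also fitted as a block. The deviations of the eyes of a mouse from their group means, over 12910 genes, correlated at -0.117 to 0.388, positive in 5 of 6 mice. Alternatives were a pseudocount of 0.1, at least 1 FPKM in 3 libraries, median-ratio scaling, quantile normalization, no trend, only the groups compared, an adjusted p under 0.1 and each library left out, and, chosen after seeing the data, mouse 5 or mouse 6 left out.

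The members and lists were chosen with earlier results of these data known. All 10 members are named. From each further list up to 4 genes that passed over the 6 pairs, or the gene with the smallest p, and the most abundant gene were named, and per member the 3 genes with the highest Pearson correlation over the libraries. Parg was added after its values were seen, as were the genes flanking Parp14 and Parp9. Of the lists, only these genes are described, and some of them are not reported here. Positions are from RefSeq GRCm38.p6, which is mm10, and exons from GENCODE vM21. Promoter entries were on hand for 7 members and not for Parp9, Parp10 and Parp14. Figures used matplotlib 3.10.9 under Python 3.11.15.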

Additional observations from a re-analysis of the deposited data

Results flagged for a closer look

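Among the 10 members and the further genes named from the lists, 55 genes had their 6 changes between the eyes of a mouse tested for a value far from the others, by Dixon's criterion. In 4 genes, none a member, 1 mouse stood apart, where chance gives about 1 in 20. Stat2 had a log2 change of 2.13 in mouse 5, the next highest being 1.27. Glul, the glutamine synthetase of Mueller glia, had -2.48 in mouse 5, the next lowest being -1.42. Art1 had 3.41 in mouse 3, the next highest being 0.91, and Hbb-bs, a globin of red blood cells, -4.19 in mouse 2.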

How the results depend on the processing

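Over the 6 pairs, 7 members passed with a pseudocount of 0.1, the filter, either scaling, no variance trend, the mouse as a replicate block and an adjusted p under 0.1. The count was 8 with Parp8 when the IOP-treated retina of mouse 4 was left out and 6, without Parp1, when mouse 6 was. Genes called over the 6 pairs numbered 2258, against 1351 paired, 4131 at an adjusted p under 0.1, 746 without mouse 5, 897 without mouse 6 and 788 to 4499 with a library removed. Without GCV the 2 members became 0 paired, 6 without mouse 5, 0 without mouse 6 and 0 to 6 with a library removed, and the 306 genes became 464 with the pseudocount of 0.1, 75 paired, 607 at an adjusted p under 0.1, 550 without mouse 5, 64 without mouse 6 and 20 to 2432. With GCV the 4 members became 1 paired, 1 with only the groups compared, 1 without mouse 5 or mouse 6 and 1 to 6 with a library removed, and the 334 genes became 535 with the pseudocount, 144 paired, 92 with only the groups compared, 780 at an adjusted p under 0.1, 51 without mouse 5 and 62 to 942. Pairing the eyes by mouse changed no other call of a member. Paired together with the filter, 3 members passed without GCV and 6 with GCV. The difference of the IOP effects had 0 to 2 genes with a library removed. GCV in IOP-treated retinas had 0 to 4, with 1 without mouse 5 or mouse 6, and in control retinas 0 to 4, with 1 at the pseudocount of 0.1 or with only the groups compared and 2 without mouse 5 or mouse 6.

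None of the estimates below that changed sign had passed. For the difference of the IOP effects, without mouse 5, Parp1 was at -0.044, Parp12 at -0.34, Parp14 at -0.065 and Dtx3l at -0.32. Dtx3l was also at -0.11 with the pseudocount of 0.1, -0.044 after quantile normalization and -0.066 without mouse 6. With a library removed this difference ran from -0.14 to 0.21 for Parp1, -0.067 to 0.36 for Parp4, -0.35 to 0.34 for Parp12, -0.0086 to 0.68 for Parp9, -0.093 to 0.61 for Parp14 and -0.48 to 0.35 for Dtx3l. Parp2 ran from -0.17 to 0.059 with GCV and from -0.018 to 0.10 over the 6 pairs, where it was -0.0031 without mouse 6, and Parp4 from -0.053 to 0.37 without GCV. Among genes of the marker lists, the blood gene Hbb-b1 was at -0.29 over the 6 pairs, at 0.24 without mouse 6 and between -0.77 and 0.36 with a library removed. The cause was not tested. Values with few fragments, such as 26 for Dtx3l, limit the precision of the lowest control levels.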
